A study of Mus musculus with 8 samples.

Results

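The 37 genes described here belong to the integrated stress response of the mouse, and were taken from a table of 20484 genes by their symbols. They comprise the 4 kinases of the initiation factor eIF2, both regulatory subunits of its phosphatase, Atf4 with 4 further stress transcription factors, 7 feedback and stress effectors, 12 enzymes of amino acid synthesis and 7 amino acid transporters. All of them were measured by RNA-seq in RN2 cells, an engineered murine leukaemia line labelled MLL-AF9/NRAS G112D on a C57BL/6J background. Cells were treated with BBC1115, OTX-015, RVX-208 or the solvent DMSO, with 2 libraries in each of the 4 groups, and the 8 cultures share the line and its oncogenes, so each result holds for 1 engineered line. OTX-015 (birabresib) is an inhibitor of both bromodomains of the BET proteins, RVX-208 (apabetalone) binds the second of those bromodomains in preference to the first, and BBC1115 is the code name of a compound found by screening a DNA-encoded library for binders of BET proteins. The labels give neither dose nor time, so differences between compounds are not at known matched exposures.

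In the integrated stress response, each kinase senses a different strain and phosphorylates eIF2. General protein synthesis then slows, while the mRNA of Atf4 is translated more. ATF4 protein is a bZIP transcription factor that binds DNA with C/EBP partners and raises transcription of genes that import and make amino acids, and of genes that later close the response down. Leukaemia cells use these enzymes and transporters to feed growth. Here only transcript levels were measured, and neither eIF2 phosphorylation nor ATF4 protein was.

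The values are RPKM, which count reads per length of transcript and per size of library, so levels of different genes can be set beside each other. A depth of between 10900000 and 18000000 reads was estimated for the 8 libraries from their lowest values. A gene was tested where it reached 1 RPKM in at least 2 libraries, which 9975 genes did. Of the 37, 35 passed, and 32 of these reached 1 RPKM in all 8 libraries. The other 3 (Atf3, Ddit3 and Slc1a4) reached it in no DMSO and no RVX-208 library, so they entered through the groups in which they were high. Cbs, an enzyme that feeds cysteine synthesis, and Vldlr, a lipoprotein receptor, did not pass and peaked at 0.0759 and 0.00744 RPKM. Differences were tested with limma on log2(RPKM + 1) and adjusted by the Benjamini-Hochberg method over all 9975 genes, and a gene was called at an adjusted p under 0.05. A fold below divides 1 group's mean RPKM by the other's. A log2 fold change is the fitted difference in log2(RPKM + 1), where the added 1 shrinks it for genes with low levels. Group means are of 2 libraries, and the value after ± is their SD.

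The 9 marker genes of the leukaemia, among them Ptprc, Spi1, Mpo and Hoxa9, were found in every library. Their summed level was 450 and 428 RPKM in BBC1115, 627 and 563 RPKM in OTX-015, 945 and 950 RPKM in RVX-208, and 989 and 1000.0 RPKM in DMSO. The sum was lower with BBC1115 and OTX-015 than in DMSO, but its members differed. With BBC1115, 1 of the 9 was called higher and 6 lower, and with OTX-015 2 were higher and 6 lower. Of all genes tested, 26.4% were called higher and 49.3% lower with BBC1115, and 24.2% higher and 40% lower with OTX-015. Myb stood at 23.0 and 21.9 RPKM in BBC1115, 96.6 and 88.7 RPKM in OTX-015 and 273 and 275 RPKM in DMSO, whereas Hoxa9 stood at 88.3 and 76.8 RPKM in BBC1115, 98.0 and 91.1 RPKM in OTX-015 and 77.2 and 69.2 RPKM in DMSO. The part of these markers in the results was not tested. Each of the 16 markers of T and NK cells, B cells, erythroid cells and platelets, and stroma stayed under 1 RPKM in every library, and Cd3e, Pax5 and Dcn were listed at 0 in all 8. In such bulk samples, fewer cells of a state and less RNA per cell cannot be told apart. RPKM also give shares of a library and not amounts per cell.

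The element through which ATF4 and its C/EBP partners are known to act has the core TGATGNAA, which reads TTNCATCA on the other strand. It was searched on both strands from 250 bases before to 50 bases after the start of each gene, in RefSeq promoters of the GRCm38.p6 build. A promoter was given for 32 of the 37 genes, and 10 of them (31.2%) held a match: Atf3, Chac1, Trib3, Nupr1, Asns, Pycr1, Pck2, Slc7a11, Slc1a4 and Vldlr. Among all genes with a promoter the share was 4.51%, and among the genes tested it was 2.79%. The 37 were listed as ATF4 and amino acid stress genes, so a higher share may come with that choice, and it was not tested. A match is only a run of letters, and no binding was measured. The matches of 7 genes are shown in capitals with their surroundings, on the strand of the gene. First come 5 whose BBC1115 libraries were all above DMSO, and then a pair that was not called with BBC1115. Among the 5, Atf3 and Slc1a4 passed the filter only through groups in which they were high. Nupr1 and Pycr1, which hold a match and were not called with BBC1115 either, are not shown. Chac1 (chr2:119351013-119351092, plus strand), Atf3 (chr1:191183400-191183479, minus strand), Trib3 (chr2:152344028-152344057, minus strand), Slc1a4 (chr11:20332699-20332728, minus strand) and Asns (chr6:7693210-7693289, minus strand) make up the first set. Slc7a11 (chr3:50443627-50443706, minus strand), the only promoter of the 37 with a pair of matches, and Pck2 (chr14:55540127-55540206, plus strand) make up the second.
Chac1: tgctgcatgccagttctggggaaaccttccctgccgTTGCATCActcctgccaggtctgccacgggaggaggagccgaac
Atf3: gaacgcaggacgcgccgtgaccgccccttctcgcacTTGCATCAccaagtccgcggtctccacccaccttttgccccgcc
Trib3: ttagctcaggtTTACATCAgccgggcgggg
Slc1a4: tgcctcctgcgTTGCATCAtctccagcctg
Asns: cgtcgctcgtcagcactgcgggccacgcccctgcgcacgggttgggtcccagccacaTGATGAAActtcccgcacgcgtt
Slc7a11: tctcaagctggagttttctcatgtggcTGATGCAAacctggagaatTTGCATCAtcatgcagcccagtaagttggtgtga
Pck2: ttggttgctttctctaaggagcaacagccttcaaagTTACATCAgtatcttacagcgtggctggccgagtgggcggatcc

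With BBC1115, most of the genes of the response that were called were higher than in DMSO, among them Atf4, Atf5, 4 of the 6 feedback and stress effectors tested and 4 of the 6 transporters that reached 1 RPKM in every library. The 32 genes that did so in all 8 libraries are counted here, since the other 3 could pass the filter only by being high in some group. Of the 32, 15 were called higher and 5 lower with BBC1115, against 26.4% higher and 49.3% lower among all 9975 genes. Here and below, the shares and medians of all genes keep the looser filter of 1 RPKM in at least 2 libraries. The median log2 fold change of the 32 was 0.24, while that of all genes was -0.25. With OTX-015 the 32 genes were split, 10 higher and 10 lower than in DMSO, against a background of 24.2% higher and 40% lower, and their median was -0.01 beside -0.13 for all genes. With RVX-208 limma called none in either direction, where 0.0902% of all genes were called higher and 0.0802% lower. At an unadjusted p under 0.05 there were 5, and the share of all genes at that looser threshold was not counted. The 3 comparisons share the DMSO libraries. Changes of at least 1 on the log2 scale were called for 9 higher and 3 lower genes with BBC1115 and for 2 higher and 3 lower genes with OTX-015. Atf3, Ddit3 and Slc1a4 were above DMSO in every BBC1115 and OTX-015 library, which goes with how they passed the filter and adds no support. They are described by their levels, with no test value against DMSO printed. Their calls against DMSO do enter the counts by promoter element and the counts of calls kept under other processing.

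The share of higher genes among all calls depends on how libraries are scaled. For BBC1115 against DMSO it was 34.8% on the RPKM as deposited, 36.8% as TPM, 48.6% with upper-quartile scaling and 50.3% with quantile normalization. For OTX-015 against DMSO it was 37.7%, 53.2%, 53.7% and 53.3% in the same order. With quantile normalization the median of all genes was 0.01 for BBC1115 and 0.03 for OTX-015.

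**Figure D1:**
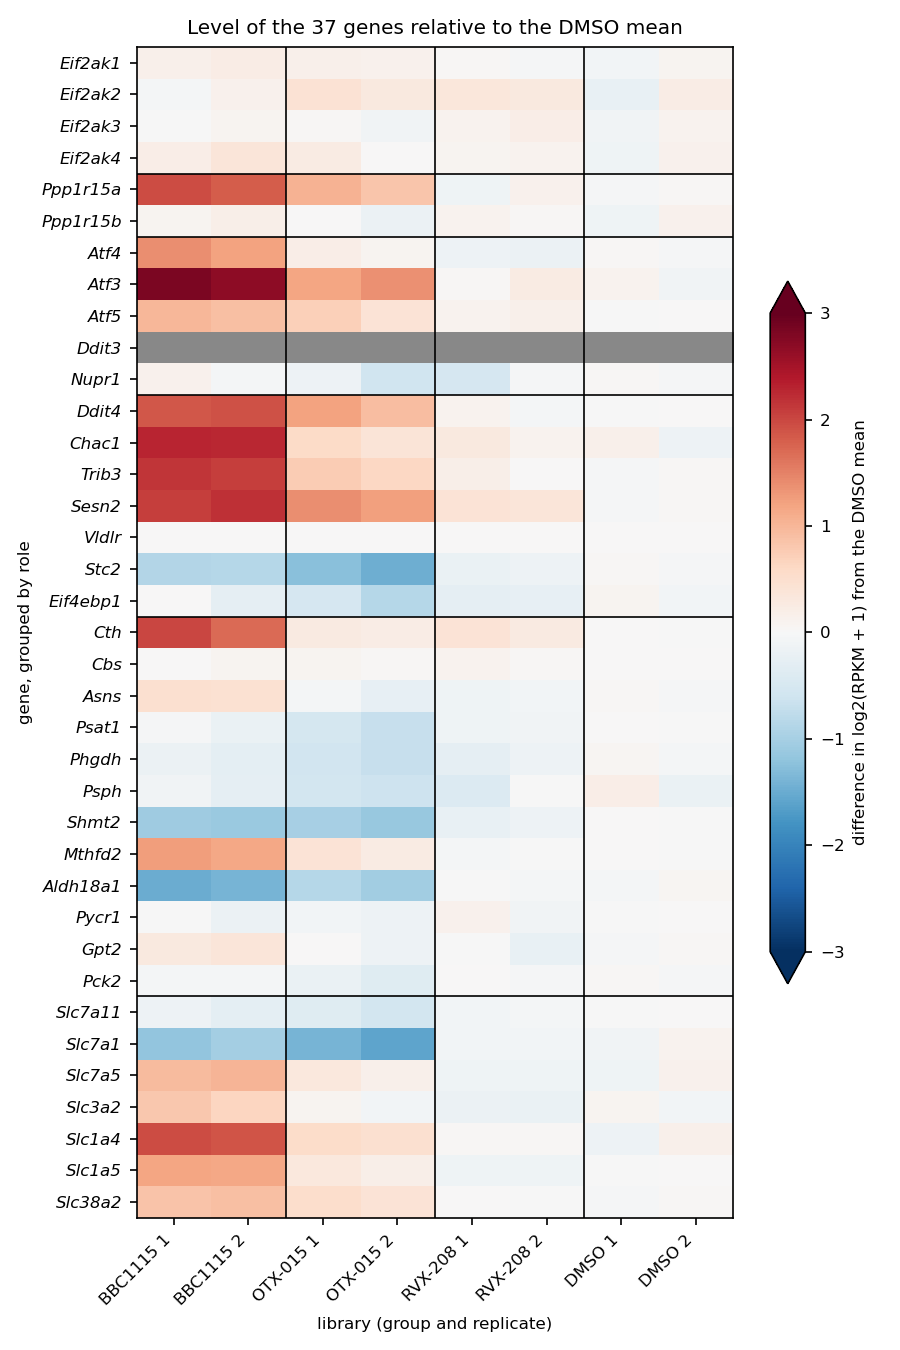
Level of each of the 37 genes in the 8 libraries, as the difference in log2(RPKM + 1) from the DMSO mean, with rows grouped by role (lines) and columns by treatment. Ddit3 is grey because it is listed at 0 in DMSO, and the 2 BBC1115 columns hold the darkest red, in Atf3 and Chac1.

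Atf4 was the most abundant of the 37 genes in every library and rose with BBC1115. It lies on chromosome 15 from 80255184 to 80257541 (GRCm38, the mm10 assembly). It stood at 678 and 595 RPKM in BBC1115, at 295 and 273 RPKM in OTX-015, at 231 and 228 RPKM in RVX-208 and at 266 and 249.96 RPKM in DMSO. Both BBC1115 libraries were thus far above the other 6, a 2.47-fold rise over DMSO (log2 fold change 1.30, 95% interval 1.08 to 1.51, adjusted p = 3.43e-07). Atf4 with OTX-015 was 1.1-fold the DMSO mean and was not called (log2 fold change 0.14, interval -0.08 to 0.35, adjusted p = 0.234). That call depends on scaling, since it passed at 0.35 after quantile normalization (adjusted p = 0.000246), at 0.33 after upper-quartile scaling and at 0.33 as TPM.

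Atf3, a stress-induced bZIP factor, was nearly silent in DMSO, at 0.294 and 0.132 RPKM. It reached 7.63 and 6.75 RPKM in BBC1115 and 1.73 and 2.15 RPKM in OTX-015, but 0.242 and 0.443 RPKM in RVX-208. The ranges of BBC1115, of OTX-015 and of DMSO did not overlap, while those of RVX-208 and DMSO did. Atf3 passed the filter through the groups in which it was high, so its separation from DMSO adds no support. Between the compounds, Atf3 was 3.7-fold higher in BBC1115 than in OTX-015 (log2 fold change 1.48, adjusted p = 1.47e-05). Atf5, a relative of Atf4 that is also translated under stress, stood at 70.3 and 65.8 RPKM in BBC1115, at 57.5 and 46.3 RPKM in OTX-015, at 37.5 and 38.5 RPKM in RVX-208 and at 34.3 and 35.2 RPKM in DMSO. It rose 1.96-fold with BBC1115 (log2 fold change 0.95, adjusted p = 6.3e-06) and 1.5-fold with OTX-015 (log2 fold change 0.56, adjusted p = 0.000623). Exons of Atf5 overlap those of Il4i1 and Nup62 on the opposite strand by 82 bases. Whether counting used strand is not stated in the sources used here, so reads of such neighbours may be mixed.

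Ddit3, which encodes CHOP, a factor that pushes stressed cells towards death, was listed at 0 in all 4 libraries of RVX-208 and DMSO. It stood at 86.5 and 75.0 RPKM in BBC1115 and at 28.0 and 24.9 RPKM in OTX-015. No fold over DMSO is given, because a 0 in this table can be a failed estimate: 12 times a gene was listed at 0 in 1 library of a group and above 20 RPKM in the other, among them Slirp and Tceb2. GENCODE M21, used here only for positions and overlaps, holds a second gene named Ddit3, which shares 105 exon bases with the first. In the first, 68 exon bases overlap Mars on the opposite strand. Whether the RPKM were made with that annotation was not examined. Between the compounds, Ddit3 was 3.05-fold higher in BBC1115 than in OTX-015 (log2 fold change 1.57, interval 1.33 to 1.81, adjusted p = 2.73e-06). Nupr1, a small stress-induced chromatin protein, was low throughout, at 2.42 and 2.0 RPKM in BBC1115, at 1.83 and 1.06 RPKM in OTX-015, at 1.23 and 2.05 RPKM in RVX-208 and at 2.24 and 2.05 RPKM in DMSO. It was called in no comparison with DMSO. For OTX-015 (log2 fold change -0.38, adjusted p = 0.0809) it passed at the same change without RVX-208 replicate 1 (adjusted p = 0.0457) or 2 (0.0459), and at -0.61 without OTX-015 replicate 1 (0.0322).

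**Figure D2:**
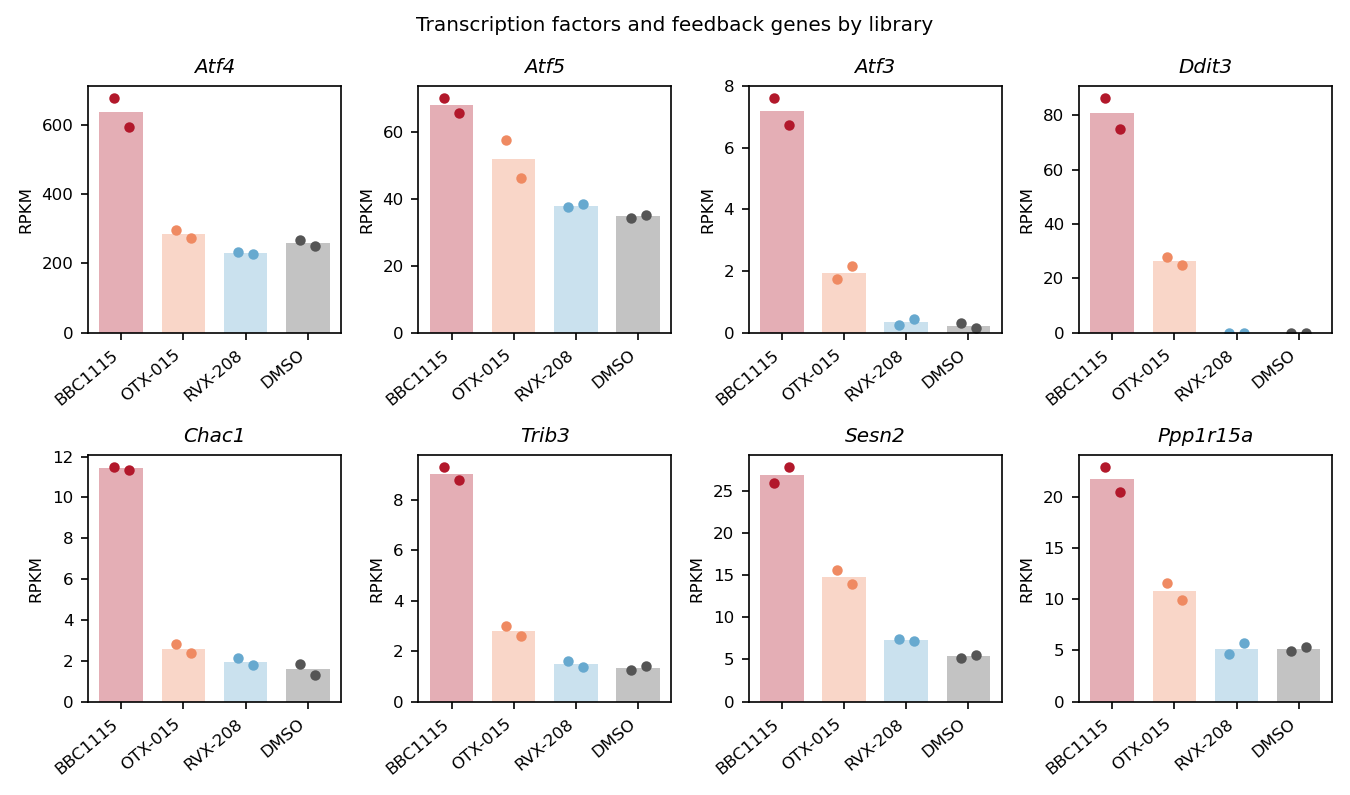
RPKM of 4 transcription factors and 4 feedback genes in each library (points) with the group mean (bars), by treatment. In all 8 panels both BBC1115 points lie above every other library, and in the Atf4 panel OTX-015 lies close to DMSO at 295 and 273 RPKM. Atf3 and Ddit3 passed the filter only through groups in which they were high.

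With BBC1115 the 6 feedback and stress effectors tested had a median log2 fold change of 1.99, beside -0.25 for all genes. That was the largest median of the 6 roles, which hold between 2 and 11 tested genes. With OTX-015 the median of the effectors was 0.59, beside -0.13 for all genes. Chac1 (chromosome 2, 119351229 to 119354381), an enzyme that degrades glutathione, stood at 11.5 and 11.4 RPKM in BBC1115, at 2.81 and 2.38 RPKM in OTX-015, at 2.13 and 1.78 RPKM in RVX-208 and at 1.83 and 1.32 RPKM in DMSO. It was 7.25-fold higher in BBC1115 than in DMSO (log2 fold change 2.28, interval 1.99 to 2.56, adjusted p = 3.94e-08). Its rise with OTX-015 was 1.65-fold (log2 fold change 0.48, adjusted p = 0.00658) and was not called without OTX-015 replicate 1 (0.40, adjusted p = 0.0601). Trib3, a pseudokinase that restrains ATF4 and the kinase AKT, stood at 9.32 and 8.78 RPKM in BBC1115, at 2.98 and 2.58 RPKM in OTX-015, at 1.62 and 1.35 RPKM in RVX-208 and at 1.27 and 1.40 RPKM in DMSO. Trib3 rose 6.79-fold with BBC1115 and 2.09-fold with OTX-015 (log2 fold changes 2.11 and 0.70, adjusted p = 2.83e-08 and 0.000284). For both genes the ranges of BBC1115, OTX-015 and DMSO did not overlap.

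A pair of genes that lower the activity of the growth kinase mTORC1 also rose with both compounds. Sesn2 (chromosome 4, 132492032 to 132510501), a leucine sensor, stood at 26.0 and 27.9 RPKM in BBC1115, at 15.6 and 14.0 RPKM in OTX-015, at 7.43 and 7.16 RPKM in RVX-208 and at 5.17 and 5.55 RPKM in DMSO. It was 5.03-fold higher with BBC1115 (log2 fold change 2.14, adjusted p = 8.02e-09) and 2.76-fold higher with OTX-015 (log2 fold change 1.31, adjusted p = 9.07e-07). Ddit4, which encodes the stress protein REDD1, stood at 26.7 and 27.8 RPKM in BBC1115, at 16.9 and 13.7 RPKM in OTX-015, at 7.29 and 6.32 RPKM in RVX-208 and at 6.66 and 6.71 RPKM in DMSO. It rose 4.08-fold with BBC1115 and 2.29-fold with OTX-015 (log2 fold changes 1.88 and 1.08). For Sesn2 and Ddit4 the 2 OTX-015 libraries lay between BBC1115 and DMSO and overlapped neither.

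Stc2, a secreted glycoprotein, went the other way. It stood at 5.46 and 5.61 RPKM in BBC1115, at 3.99 and 3.32 RPKM in OTX-015, at 9.37 and 9.66 RPKM in RVX-208 and at 11.2 and 10.7 RPKM in DMSO. It was 1.97-fold lower with BBC1115 and 2.99-fold lower with OTX-015 than in DMSO (log2 fold changes -0.87 and -1.36, adjusted p = 1.53e-05 and 1.14e-06). Eif4ebp1, whose protein holds back the cap-binding factor eIF4E, was called with OTX-015 only, at 31.3 ± 5.59 RPKM on average against 50.3 ± 4.23 RPKM in DMSO (log2 fold change -0.68, adjusted p = 0.000794). Its BBC1115 mean was 45.7 ± 6.36 RPKM (log2 fold change -0.14, adjusted p = 0.337), and the difference between the compounds was itself called (0.54, adjusted p = 0.00614). That last call was lost without BBC1115 replicate 1 (0.40, adjusted p = 0.0517) and without OTX-015 replicate 2 (0.36, adjusted p = 0.0667).

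The phosphatase that removes the mark from eIF2 has an inducible and a constant subunit, and the levels differed between them. Ppp1r15a, which encodes the inducible GADD34, stood at 22.9 and 20.5 RPKM in BBC1115, at 11.6 and 9.92 RPKM in OTX-015, at 4.62 and 5.70 RPKM in RVX-208 and at 4.97 and 5.29 RPKM in DMSO. It rose 4.23-fold with BBC1115 and 2.1-fold with OTX-015 (log2 fold changes 1.89 and 0.94, adjusted p = 9.31e-08 and 4.82e-05). Ppp1r15b, which encodes the constant CReP, averaged 36.2 ± 1.35 RPKM in BBC1115, 31.3 ± 2.94 RPKM in OTX-015, 34.7 ± 1.10 RPKM in RVX-208 and 33.1 ± 4.57 RPKM in DMSO, and was called with neither. With BBC1115 it gained a call without DMSO replicate 2 (0.27 beside 0.13, adjusted p = 0.0433), after quantile normalization (0.35, adjusted p = 0.00919) and after upper-quartile scaling (0.38, adjusted p = 0.00597). Its exons overlap the unclassified transcript Gm26616 on the opposite strand by 640 bases.

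Of the kinases, only Eif2ak2 was called against DMSO, and the calls of all 4 depended on single libraries or on scaling. Eif2ak1, the haem sensor HRI, stood at 31.2 and 32.7 RPKM in BBC1115, at 30.9 and 30.5 RPKM in OTX-015, at 28.6 and 26.9 RPKM in RVX-208 and at 26.2 and 29.5 RPKM in DMSO. Eif2ak3, the endoplasmic reticulum sensor PERK, stood at 7.53 and 8.16 RPKM in BBC1115, at 7.89 and 7.07 RPKM in OTX-015, at 8.22 and 8.91 RPKM in RVX-208 and at 6.96 and 8.34 RPKM in DMSO. Eif2ak4, the amino acid sensor GCN2, stood at 6.85 and 7.72 RPKM in BBC1115, at 7.05 and 5.87 RPKM in OTX-015, at 6.17 and 6.32 RPKM in RVX-208 and at 5.22 and 6.48 RPKM in DMSO. None of these 3 was called, and their log2 fold changes with BBC1115 were 0.19 (adjusted p = 0.0614), 0.04 (0.777) and 0.28 (0.0608). Without DMSO replicate 2, Eif2ak1 reached 0.28 (adjusted p = 0.0263) and Eif2ak4 reached 0.41 (0.0136), and all 3 were called after quantile normalization and upper-quartile scaling. With OTX-015, Eif2ak1 was called at 0.32 to 0.33 under the 3 other scalings, beside 0.14 on the RPKM as deposited, and Eif2ak4 was called at 0.26 after quantile normalization. Eif2ak2, the double-stranded RNA sensor PKR, stood at 10.5 and 12.01 RPKM in BBC1115, at 15.0 and 13.5 RPKM in OTX-015, at 14.0 and 13.5 RPKM in RVX-208 and at 9.22 and 12.9 RPKM in DMSO. It was called higher with OTX-015 (log2 fold change 0.36, adjusted p = 0.0396). The lower DMSO library weighs on that call, since the change was 0.14 without it (adjusted p = 0.367), and the call was also lost without OTX-015 replicate 1 (0.28, adjusted p = 0.211) or 2 (0.43, adjusted p = 0.0791). Eif2ak1 shares 487 exon bases with Aimp2 on the opposite strand.

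The enzymes of amino acid synthesis did not move as a block. With BBC1115, 4 of the 11 tested were higher than in DMSO (Cth, Mthfd2, Asns and Gpt2) and 3 were lower (Shmt2, Aldh18a1 and Phgdh). With OTX-015, Mthfd2 alone was higher, and 6 were lower (Psat1, Phgdh, Psph, Shmt2, Aldh18a1 and Pck2). The shares among all genes tested were 26.4% higher and 49.3% lower with BBC1115, and 24.2% higher and 40% lower with OTX-015. Cth, the last enzyme of cysteine synthesis from methionine, stood at 15.1 and 12.1 RPKM in BBC1115, at 3.84 and 3.63 RPKM in OTX-015, at 4.34 and 3.85 RPKM in RVX-208 and at 3.005 and 2.987 RPKM in DMSO. It rose 4.54-fold with BBC1115 (log2 fold change 1.86, adjusted p = 1.1e-07), and its change with OTX-015 was 0.24 and not called (adjusted p = 0.0957). The OTX-015 value passed at 0.38 after quantile normalization, at 0.39 after upper-quartile scaling and at 0.45 as TPM.

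Mitochondrial folate metabolism held genes of both directions. Mthfd2 (chromosome 6, 83305691 to 83325908), which oxidises folate units in mitochondria, stood at 148 and 140.2 RPKM in BBC1115, at 82.5 and 73.5 RPKM in OTX-015, at 59.6 and 61.6 RPKM in RVX-208 and at 62.8 and 61.0 RPKM in DMSO. It rose 2.33-fold with BBC1115 and 1.26-fold with OTX-015 (log2 fold changes 1.21 and 0.33, adjusted p = 2.03e-07 and 0.00571). Shmt2, which splits serine into glycine and supplies the folate unit to that enzyme, stood at 67.8 and 66.1 RPKM in BBC1115, at 71.7 and 65.2 RPKM in OTX-015, at 123 and 130.1 RPKM in RVX-208 and at 144 and 143 RPKM in DMSO. It was 2.15-fold lower with BBC1115 and 2.1-fold lower with OTX-015 (log2 fold changes -1.09 and -1.06, adjusted p = 3.54e-07 and 1.27e-06). In DMSO the Shmt2 level was thus above that of Mthfd2, and in BBC1115 it was below it in both libraries. Exons of Shmt2 and Ndufa4l2 overlap by 32 bases on opposite strands.

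The 3 genes of serine synthesis were all called lower with OTX-015. Phgdh, the first enzyme, stood at 93.8 and 86.3 RPKM in BBC1115, at 71.5 and 66.1 RPKM in OTX-015, at 88.2 and 95.5 RPKM in RVX-208 and at 111 and 103 RPKM in DMSO. Psat1, which transfers the amino group, averaged 195 ± 15.1 RPKM in BBC1115, 139 ± 11.5 RPKM in OTX-015, 195 ± 1.39 RPKM in RVX-208 and 212 ± 2.41 RPKM in DMSO. Psph, which removes the phosphate, averaged 15.3 ± 1.39 RPKM in BBC1115, 11.4 ± 0.416 RPKM in OTX-015, 15.2 ± 3.18 RPKM in RVX-208 and 17.8 ± 3.47 RPKM in DMSO. Their log2 fold changes with OTX-015 were -0.63 for Phgdh (adjusted p = 0.000103), -0.61 for Psat1 (0.000154) and -0.58 for Psph (0.00566), the last lost without OTX-015 replicate 2 (-0.55, adjusted p = 0.0576). With BBC1115 only Phgdh was called lower (-0.24, adjusted p = 0.0262), and this did not last: it was -0.18 without BBC1115 replicate 2 (adjusted p = 0.16), -0.19 without DMSO replicate 1 (0.137) and 0.01 after upper-quartile scaling (0.874). Psph with BBC1115 was called at -0.38 without DMSO replicate 2 (adjusted p = 0.0296) and not otherwise. Part of Psph, 452 exon bases, overlaps a transcript of Cct6a on the opposite strand.

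Asns, which makes asparagine and is a classic ATF4 target, stood at 117 and 115 RPKM in BBC1115, at 79.7 and 70.9 RPKM in OTX-015, at 76.6 and 79.4 RPKM in RVX-208 and at 86.1 and 81.4 RPKM in DMSO. It rose 1.39-fold with BBC1115 (log2 fold change 0.47, interval 0.28 to 0.65, adjusted p = 0.000388). With OTX-015 it was at -0.15 and not called (adjusted p = 0.135), although it was called at -0.24 without OTX-015 replicate 1 (0.0394) and turned to positive, uncalled values under the 3 other scalings. Aldh18a1 (chromosome 19, 40550257 to 40588463), which starts proline and ornithine synthesis from glutamate, fell most of the 35 genes with BBC1115. It stood at 8.57 and 9.14 RPKM in BBC1115, at 13.9 and 12.03 RPKM in OTX-015, at 25.5 and 24.9 RPKM in RVX-208 and at 24.9 and 26.9 RPKM in DMSO. It was 2.92-fold lower with BBC1115 and 2-fold lower with OTX-015 (log2 fold changes -1.45 and -0.95, adjusted p = 1.36e-07 and 9.01e-06).

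Pycr1, the last enzyme of proline synthesis, averaged 3.41 ± 0.387 RPKM in BBC1115, 3.34 ± 0.180 RPKM in OTX-015, 3.74 ± 0.519 RPKM in RVX-208 and 3.70 ± 0.0667 RPKM in DMSO and was called with no compound. Pck2, the mitochondrial enzyme that makes phosphoenolpyruvate, was called lower with OTX-015, at 13.2 ± 1.16 RPKM against 16.3 ± 0.518 RPKM in DMSO (log2 fold change -0.29, adjusted p = 0.0166). That call was lost without OTX-015 replicate 2 (-0.20, adjusted p = 0.0879) and without DMSO replicate 1 (-0.26, adjusted p = 0.0707). It was also lost with upper-quartile scaling (-0.11, adjusted p = 0.149), as TPM (-0.11, adjusted p = 0.269) and with only the 2 groups compared (adjusted p = 0.0625). Gpt2, a mitochondrial alanine transaminase, was called higher with BBC1115, at 5.19 ± 0.206 RPKM against 3.93 ± 0.134 RPKM in DMSO (0.33, adjusted p = 0.0213). It was not called without BBC1115 replicate 2 (0.29, adjusted p = 0.101) or DMSO replicate 1 (0.30, adjusted p = 0.0701).

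**Figure D3:**
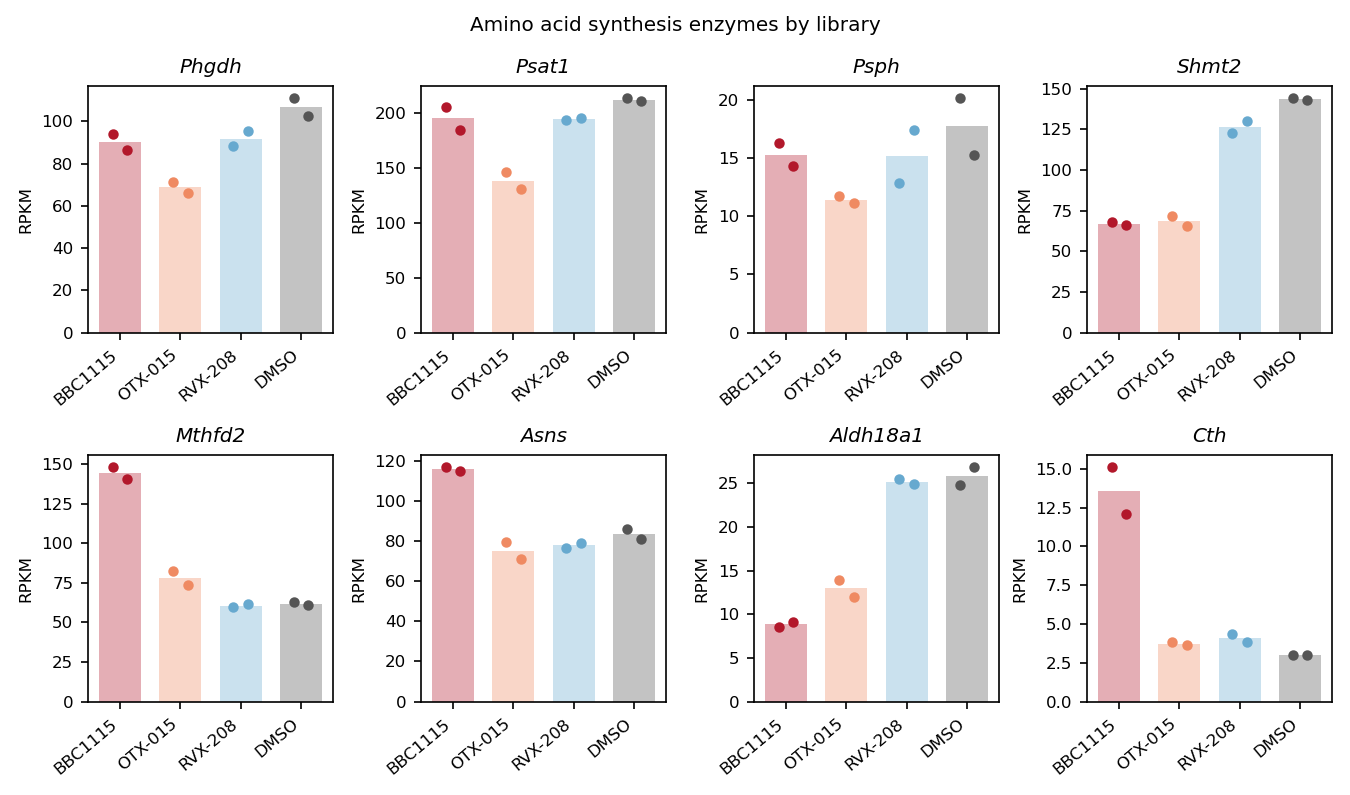
RPKM of 8 enzymes of amino acid synthesis in each library (points) with the group mean (bars), by treatment. Cth, Mthfd2 and Asns are highest in BBC1115, Phgdh, Psat1 and Psph are lowest in OTX-015, and Shmt2 and Aldh18a1 are low in both BBC1115 and OTX-015.

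Among the transporters, Slc1a5, Slc7a5, Slc3a2 and Slc38a2 rose with BBC1115 and Slc7a1 fell. Slc1a5, a carrier of glutamine, stood at 157 and 155 RPKM in BBC1115, at 85.7 and 78.2 RPKM in OTX-015, at 62.9 and 63.1 RPKM in RVX-208 and at 68.4 and 69.3 RPKM in DMSO. It rose 2.26-fold with BBC1115 (log2 fold change 1.17, adjusted p = 1.57e-07) and 1.19-fold with OTX-015 (0.25, adjusted p = 0.0176). The OTX-015 call was lost without OTX-015 replicate 1 (0.18, adjusted p = 0.0707) and without DMSO replicate 1 (0.24, adjusted p = 0.0634). Slc1a4, its relative for alanine, serine and cysteine, stood at 5.78 and 5.48 RPKM in BBC1115, at 1.55 and 1.45 RPKM in OTX-015, at 0.804 and 0.785 RPKM in RVX-208 and at 0.574 and 0.944 RPKM in DMSO. The ranges of BBC1115, OTX-015 and DMSO did not overlap, but Slc1a4 passed the filter through high groups, so its separation from DMSO adds no support. Slc1a4 was 3.75-fold higher in BBC1115 than in OTX-015 (log2 fold change 1.41, adjusted p = 1.24e-05).

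Slc7a5 and Slc3a2 encode the 2 chains of the leucine carrier LAT1. Slc7a5 averaged 86.8 ± 3.10 RPKM in BBC1115, 51.5 ± 3.97 RPKM in OTX-015, 39.5 ± 0.0847 RPKM in RVX-208 and 43.6 ± 5.51 RPKM in DMSO. Slc3a2, the heavy chain that other carriers share, averaged 85.6 ± 6.71 RPKM in BBC1115, 51.5 ± 4.30 RPKM in OTX-015, 45.3 ± 0.610 RPKM in RVX-208 and 51.5 ± 4.16 RPKM in DMSO. With BBC1115 both were called higher (log2 fold changes 0.98 and 0.72, adjusted p = 3.66e-06 and 3.37e-05), and with OTX-015 neither was (0.24 and 0.00, adjusted p = 0.0511 and 0.991). The OTX-015 value of Slc7a5 passed without OTX-015 replicate 2 (0.32, adjusted p = 0.0469) and without DMSO replicate 2 (0.37, adjusted p = 0.00759), and both genes passed under the 3 other scalings. Slc38a2, a sodium-coupled carrier of small neutral amino acids, averaged 113 ± 1.98 RPKM in BBC1115, 84.2 ± 5.12 RPKM in OTX-015, 60.8 ± 0.238 RPKM in RVX-208 and 60.7 ± 1.43 RPKM in DMSO. It was called higher with both compounds (0.88 and 0.47, adjusted p = 1.48e-06 and 0.00039).

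Slc7a1 (chromosome 5, 148327410 to 148399904), the main carrier of arginine and lysine, fell most of the 35 genes with OTX-015. It stood at 11.7 and 13.3 RPKM in BBC1115, at 10.04 and 8.67 RPKM in OTX-015, at 26.1 and 26.1 RPKM in RVX-208 and at 25.9 and 29.9 RPKM in DMSO. It was 2.23-fold lower with BBC1115 and 2.98-fold lower with OTX-015 (log2 fold changes -1.10 and -1.48, adjusted p = 2.8e-06 and 7.44e-07). Slc7a11, which exchanges cystine for glutamate, averaged 5.10 ± 0.486 RPKM in BBC1115, 4.20 ± 0.496 RPKM in OTX-015, 5.78 ± 0.0508 RPKM in RVX-208 and 6.10 ± 0.0697 RPKM in DMSO. It was called lower with OTX-015 (-0.45, adjusted p = 0.0039) and not with BBC1115 (-0.22, adjusted p = 0.0862).

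**Figure D4:**
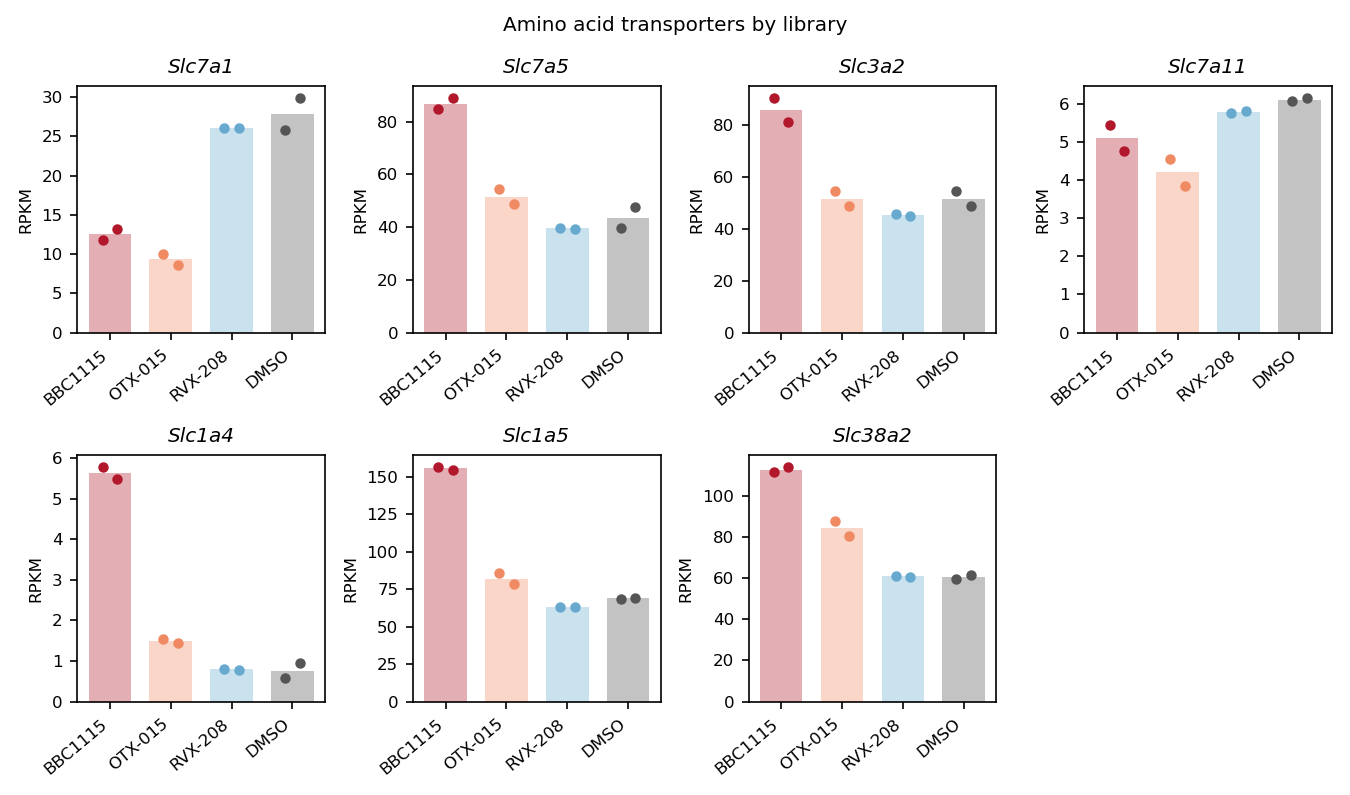
RPKM of the 7 amino acid transporters in each library (points) with the group mean (bars), by treatment. Slc7a5, Slc3a2, Slc1a4, Slc1a5 and Slc38a2 are highest in BBC1115, while Slc7a1 is below 14 RPKM in every BBC1115 and OTX-015 library and above 25 RPKM in every RVX-208 and DMSO library. Slc1a4 passed the filter only through groups in which it was high.

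With RVX-208, 0 of the 35 genes passed limma's test against DMSO, and 5 had an unadjusted p under 0.05: Sesn2, Cth and Eif2ak2 above and Phgdh and Shmt2 below DMSO. No other tool was run, and the share of all genes at that unadjusted threshold was not counted. Log2 fold changes ran from -0.27 (Nupr1) to 0.38 (Sesn2). Sesn2 averaged 7.30 RPKM in RVX-208 and 5.36 RPKM in DMSO, and its adjusted p of 0.131 was the smallest. With RVX-208 the 95% interval of Atf4 ran from -0.38 to 0.05, that of Chac1 from -0.08 to 0.49 and that of Trib3 from -0.16 to 0.34, so changes of the size seen with BBC1115 lie outside all 3 intervals. Without DMSO replicate 2, 2 genes passed, Sesn2 (0.43, adjusted p = 0.0384) and Eif2ak2 (0.53, adjusted p = 0.0213).

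BBC1115 and OTX-015 were compared directly, at doses that the labels do not give. Of the 32 genes, 20 were higher and 1 was lower in BBC1115, while 14.2% of all genes were higher and 29.7% lower. The median of the 32 was 0.41 and that of all genes was -0.09. Atf3, Ddit3 and Slc1a4, which reached 1 RPKM in every library of both groups, were higher as well. Of all called genes 32.3% were higher in BBC1115 on the RPKM as deposited, 17.1% as TPM, 43.6% with upper-quartile scaling and 49.2% with quantile normalization. The 7 genes that were higher by at least 1 on the log2 scale were Atf4, Atf3, Ddit3, Chac1, Trib3, Cth and Slc1a4. Chac1 differed most, at 4.41-fold (log2 fold change 1.79, interval 1.51 to 2.08, adjusted p = 3.47e-06), and Atf4 differed 2.24-fold (1.16, interval 0.95 to 1.37, adjusted p = 8.95e-06).

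All 6 feedback and stress effectors tested were higher in BBC1115 than in OTX-015, Stc2 included, at 5.54 RPKM on average against 3.66 RPKM (0.49, adjusted p = 0.00314). Of the 6 transporters that reached 1 RPKM in every library 5 were higher, and so was Slc1a4. Among synthesis enzymes 6 of 11 were higher, and Aldh18a1 was the 1 gene that was lower (8.85 RPKM against 13.0 RPKM, log2 fold change -0.50, adjusted p = 0.00183). These counts stand beside 14.2% higher and 29.7% lower among all genes tested. Shmt2 was level, at 66.9 and 68.5 RPKM on average (log2 fold change -0.03, interval -0.21 to 0.15, adjusted p = 0.782), and Pycr1 at 0.02 (interval -0.24 to 0.28) was not called either. None of the 4 kinases was called by limma, and 1 of them, Eif2ak2, had an unadjusted p under 0.05 (log2 fold change -0.32, adjusted p = 0.0816). Besides Eif4ebp1, 3 calls depended on single libraries. As TPM, those of Gpt2 (0.303, adjusted p = 0.101) and Slc7a1 (0.255, adjusted p = 0.134) were lost as well. Atf5 (0.39, adjusted p = 0.00984) was lost without BBC1115 replicate 1 (0.34, adjusted p = 0.0608) or OTX-015 replicate 2 (0.24, adjusted p = 0.0582). Gpt2 (0.40, adjusted p = 0.0163) was lost without BBC1115 replicate 2 (0.36, adjusted p = 0.0807) or OTX-015 replicate 2 (0.32, adjusted p = 0.0948), and so was Slc7a1 (0.38, adjusted p = 0.0135), at 0.30 (0.0937) and 0.29 (0.0961). Eif2ak2 was called lower at the unchanged value of -0.32 without DMSO replicate 1 (adjusted p = 0.0171) or 2 (0.0177). Psph stood at 0.39 and was not called (adjusted p = 0.0554), but it passed at that value without any 1 of the RVX-208 or DMSO libraries (adjusted p between 0.015 and 0.0327).

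**Figure D5:**
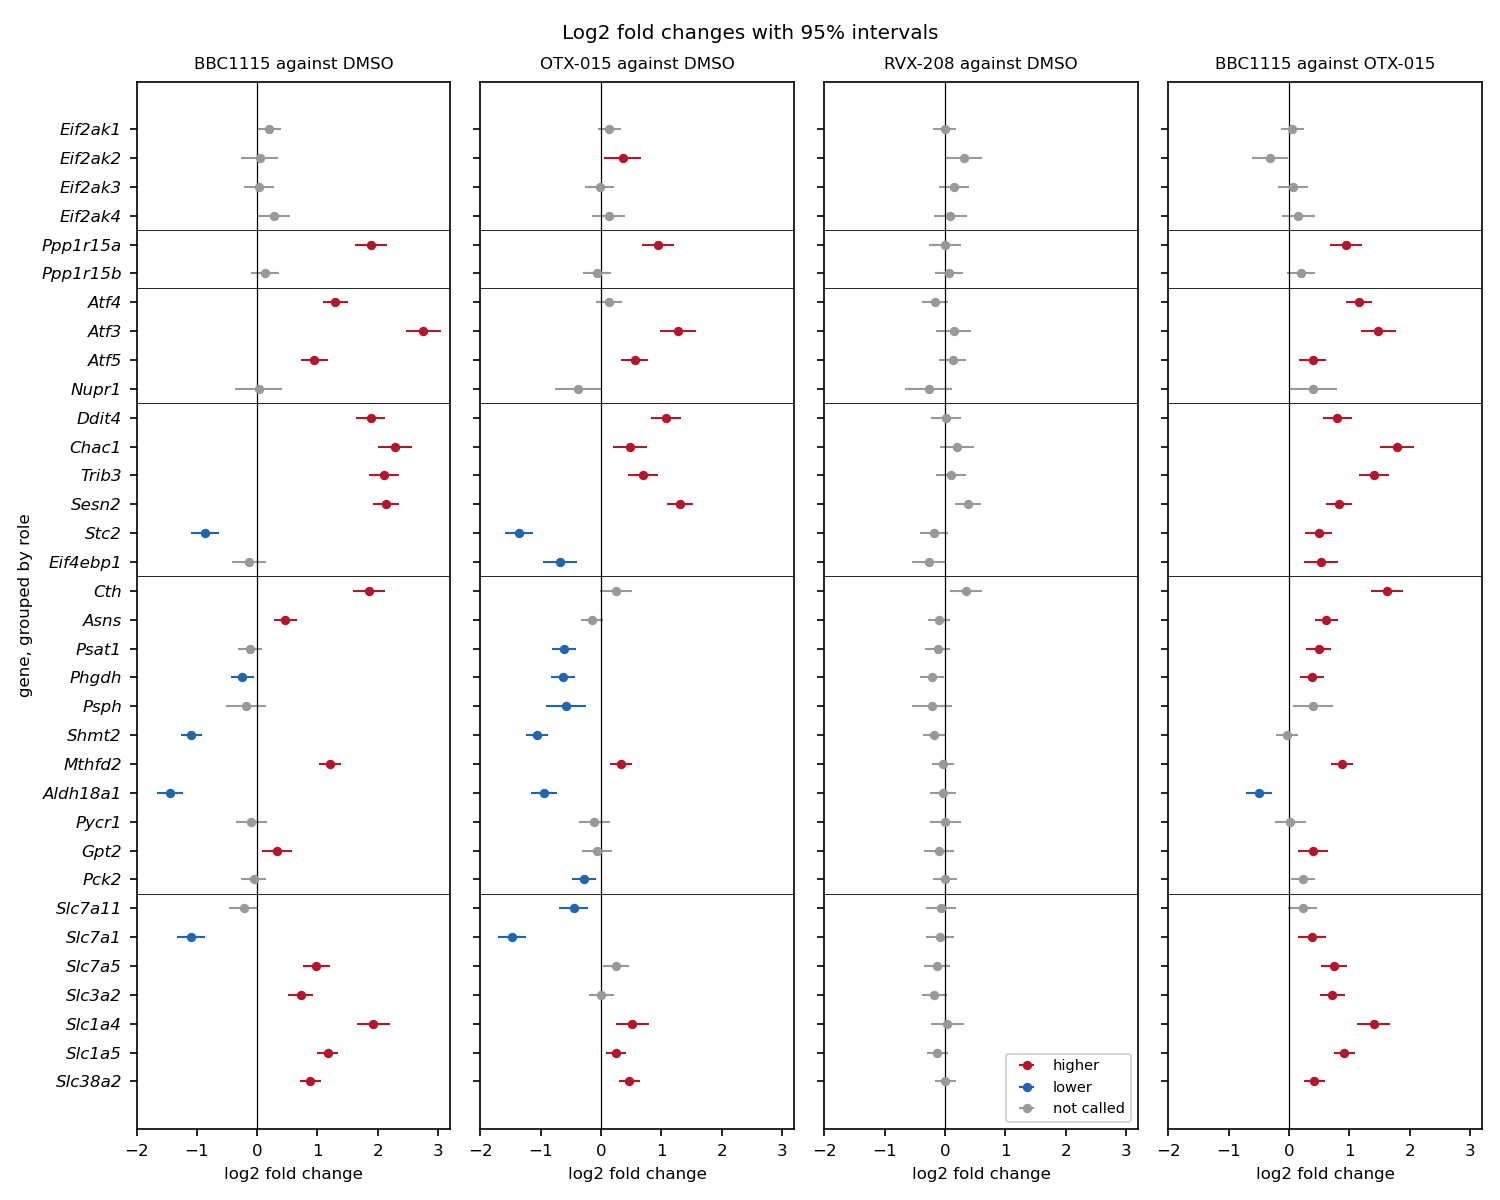
Log2 fold change (points) with its 95% interval (lines) for the 34 tested genes other than Ddit3, in 4 comparisons, with colour for the call and rows grouped by role. Atf3 and Slc1a4, which passed the filter only through groups in which they were high, are drawn as well. The points of the RVX-208 panel lie between -0.27 and 0.38, with intervals that reach further, and in the BBC1115 against OTX-015 panel only Aldh18a1 is called lower.

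Against RVX-208, 15 of the 32 genes were higher and 4 lower in BBC1115, where 23.9% of all genes were higher and 49.6% lower. The 4 were Shmt2, Aldh18a1, Slc7a1 and Stc2. OTX-015 against RVX-208 gave 10 higher and 9 lower, beside 17.6% higher and 38.1% lower among all genes. Atf4 was among the 10, at 284 RPKM in OTX-015 and 230 RPKM in RVX-208 on average (log2 fold change 0.30, adjusted p = 0.0207). It was not called without OTX-015 replicate 1 (0.24, adjusted p = 0.104) or without RVX-208 replicate 1 (0.31, 0.109) or 2 (0.29, 0.131). The share of higher genes among all calls was 32.5% for BBC1115 against RVX-208 and 31.5% for OTX-015 against RVX-208, but 50% and 52.4% with quantile normalization. These comparisons reuse the BBC1115 and OTX-015 libraries described above.

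The calls were also counted by the promoter element, as a description with no test. Of the 9 tested genes with a match, 5 were higher with BBC1115 than in DMSO, and the other 4 (Nupr1, Pycr1, Pck2 and Slc7a11) were not called. Of these 5, Atf3 and Slc1a4 passed the filter only through groups in which they were high. Of the 21 with a promoter and no match, 10 were higher and 5 lower, and of the 5 with no promoter in the table (Cth, Slc7a5, Slc1a5, Eif4ebp1 and Ppp1r15b) 3 were higher and the other 2 were not called. With OTX-015 the 9 held 4 higher and 2 lower genes, and the 21 held 8 higher and 7 lower. Atf3 and Slc1a4 are also among these 4. Ddit3, which passed the filter in the same way, is among the 10 higher with BBC1115 and the 8 with OTX-015. Among all genes, 26.4% were higher and 49.3% lower with BBC1115, and 24.2% were higher and 40% lower with OTX-015. Atf4, Ddit3, Sesn2, Ddit4 and Ppp1r15a had no match in these windows, which says only that these letters are not there.

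Other genes of the pathway were counted from lists, to be read beside the shares of all genes tested, 26.4% higher and 49.3% lower with BBC1115 and 24.2% higher and 40% lower with OTX-015. Of 12 genes of eIF2, its exchange factor eIF2B and partners of GCN2, 1 was higher and 5 were lower with BBC1115, and 1 was higher and 8 were lower with OTX-015. The 1 higher gene was Impact, an inhibitor of GCN2 activation, at 24.9 and 23.9 RPKM in BBC1115, 18.8 and 16.6 RPKM in OTX-015, 10.8 and 10.9 RPKM in RVX-208, and 9.34 and 9.63 RPKM in DMSO. Eif2s1, the subunit of eIF2 that the kinases phosphorylate, was 2.19-fold lower with BBC1115 and 1.84-fold lower with OTX-015 than in DMSO (log2 fold changes -1.11 and -0.87, adjusted p = 1.59e-07 and 2.84e-06). Of 13 tested bZIP partners and relatives of ATF4, 6 were higher and 4 lower with BBC1115, and 4 were higher and 3 lower with OTX-015. They included Cebpd, a C/EBP factor, at 33.7 RPKM in BBC1115 and 25.0 RPKM in OTX-015 against 14.0 RPKM in DMSO, and Atf1, a CREB relative, at 14.5 and 23.8 RPKM against 44.7 RPKM.

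Beside the same shares, of 18 other tested genes of amino acid and folate metabolism, 7 were higher and 8 lower with BBC1115, and 5 were higher and 9 lower with OTX-015. Glul, which makes glutamine, rose 4.35-fold with BBC1115 and 2.7-fold with OTX-015 (adjusted p = 4.08e-09 and 2.23e-07). Shmt1, the cytosolic partner of Shmt2, was 3.25-fold lower with BBC1115 and 3.46-fold lower with OTX-015. Of 12 other transporters tested, 2 were higher and 8 lower with BBC1115, where 26.4% of all genes were higher and 49.3% lower, at a median of -0.70 beside -0.25 for all genes. With OTX-015, 1 was higher and 3 were lower, where 24.2% of all genes were higher and 40% lower. Their median was then -0.07, beside -0.13 for all genes. Slc7a8, a neutral carrier that also pairs with Slc3a2, rose 4.55-fold with BBC1115 and 2.74-fold with OTX-015 (15.7 and 9.46 RPKM against 3.46 RPKM in DMSO). Slc38a1, a glutamine carrier, was 3.04-fold lower with BBC1115 (15.1 RPKM against 45.7 RPKM in DMSO) and averaged 28.15 RPKM in OTX-015.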

How the data were processed

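RNA-seq was made from 2 cultures for each of 4 treatments with a directional mRNA kit, per the labels, which call them biological replicates; p-values measure the spread between these cultures. The authors deposited 1 table of RPKM, and STAR, Cufflinks and the mm10 build are listed, without versions or roles, per the submitters' processing notes. All 8 columns were used and 0 left out. Depth was estimated as the library size at which the lowest RPKM of long genes with 1 annotated transcript equal 1 read; counts were not recovered, so no count test was run.

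Genes with at least 1 RPKM in at least 2 libraries were fitted with limma 3.58.1 (R 4.3.3) on log2(RPKM + 1), with a mean for each group, a variance trend and 4 residual and 6.81 prior degrees of freedom. Tests were two-sided, adjusted by Benjamini-Hochberg over 9975 genes. The method was tested on simulated data. A lone library of a group, where 1 is left out, is assumed to vary like the other groups.

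The 37 genes, the other lists and the naming rule were chosen with earlier results of these data known. Values in every library are given for the kinases, the transcription factors and every other gene called against DMSO by at least 1 on the log2 scale with at least 5 RPKM in a group. Values by library of Phgdh and Asns were added after they were seen. From the other lists up to 3 called genes with the largest change are named, except any not reported here. Loci came from GENCODE M21 and promoters from RefSeq, both on GRCm38. Alternatives were another pseudocount, no filter, 3 scalings, the 2 groups alone, no trend, a replicate block and leaving out each library, 16 in all.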

Additional observations from a re-analysis of the deposited data

How the results depend on the processing

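Of the genes called in a comparison, 21 of 23 for BBC1115 against DMSO, 18 of 23 for OTX-015 against DMSO, 20 of 24 for BBC1115 against OTX-015, 21 of 22 for BBC1115 against RVX-208 and 16 of 22 for OTX-015 against RVX-208 kept their call and direction under all 16 alternatives. Atf3, Ddit3 and Slc1a4 are among the called and kept genes in each of these comparisons. They reached the filter in no DMSO and no RVX-208 library, so against those groups their calls add no support. Counts of called genes, over the 35 tested, stayed within 1.5 times of those reported, with 2 exceptions. The genes called higher with RVX-208 than with DMSO, 0 in all, numbered between 0 and 2 when 1 library was left out. Those called lower in BBC1115 than in OTX-015, 1 in all, numbered 2 as TPM (Shmt2 joined) and 2 with only the 2 groups compared (Eif2ak2 joined), and between 1 and 2 when 1 library was left out. In BBC1115 and OTX-015 against RVX-208, only genes called in the reported setting were followed, and none of these turned direction. In the other comparisons genes called under either setting were followed, and directions turned in BBC1115 against DMSO alone. There Phgdh stood at 0.012 after upper-quartile scaling, and Pycr1 at 0.277 (adjusted p = 0.0432) after quantile normalization. Pck2 stood at 0.194 (adjusted p = 0.0229) after quantile normalization and 0.184 (adjusted p = 0.0263) after upper-quartile scaling. Both scalings move the median of all genes up, from -0.25 to 0.01 and -0.02. Counting uncalled values too, 11 genes changed sign under some alternative in BBC1115 against DMSO (Psat1, Slc7a11 and Eif4ebp1 among them), 7 in OTX-015 against DMSO (Asns among them), 13 in RVX-208 against DMSO and 4 in BBC1115 against OTX-015. The cause of any of these changes in call or direction was not tested. For numbering by replicate, the deviations of same-numbered libraries correlated at 0.52 between BBC1115 and DMSO but between -0.08 and 0.06 for the other 5 pairs of groups, so numbers were not taken to pair cultures. With the replicate block, 18 genes were higher and 5 lower with BBC1115 than in DMSO, and 14 higher and 10 lower with OTX-015, where Slc7a5 joined (adjusted p = 0.038). Psph joined those higher in BBC1115 than in OTX-015 (adjusted p = 0.0493). With 2 libraries a group, some calls are lost without 1 library, and genes under 1 RPKM such as Atf3 and Slc1a4 in DMSO rest on few reads.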

Other observations

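The parallel arms of the unfolded protein response, which IRE1 and ATF6 start and which do not pass through eIF2, were counted from a list of 24 genes. With BBC1115, 10 were higher and 6 lower than in DMSO, and with OTX-015 5 were higher and 9 lower. Among all genes tested, 26.4% were higher and 49.3% lower with BBC1115, and 24.2% were higher and 40% lower with OTX-015. Hspa5, the main chaperone of the endoplasmic reticulum, stood at 906 and 844 RPKM in BBC1115, at 535 and 494 RPKM in OTX-015, at 416 and 410 RPKM in RVX-208 and at 414 and 413 RPKM in DMSO, a 2.11-fold rise with BBC1115 (log2 fold change 1.08, adjusted p = 1.27e-06). Ern1, which encodes IRE1, rose 2.41-fold with BBC1115 and 2.15-fold with OTX-015. Dnajb9, a chaperone that IRE1 signalling induces, averaged 22.7 RPKM in BBC1115, 9.83 RPKM in OTX-015 and 10.5 RPKM in DMSO. Sdf2l1, another chaperone partner, was 1.6-fold lower with OTX-015 than in DMSO.

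Of 22 tested genes of amino acid sensing by mTORC1, 8 were higher and 8 lower with BBC1115, and 5 were higher and 7 lower with OTX-015, beside the same shares of all genes. Sesn3, a relative of Sesn2, stood at 14.7 and 15.0 RPKM in BBC1115 and 9.27 and 8.14 RPKM in OTX-015, against 0.614 and 0.960 RPKM in DMSO. Rraga, a GTPase that brings mTORC1 to the lysosome, averaged 90.9 RPKM in BBC1115 and 58.3 RPKM in OTX-015, against 30.1 RPKM in DMSO, while Lamtor4, a part of its anchor, averaged 44.8 and 70.5 RPKM against 136 RPKM. Of 8 tested genes of the mitochondrial stress response, 5 were lower with BBC1115 and 4 with OTX-015, and the rest were not called, where 49.3% and 40% of all genes were lower. Clpp, a protease subunit of the mitochondrial matrix, was 3.7-fold lower with BBC1115 and 2.66-fold lower with OTX-015 than in DMSO (log2 fold changes -1.77 and -1.33), and the chaperonin Hspd1 was 2.02-fold and 2.33-fold lower.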
